A study of Mus musculus with 6 samples.

Results

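The 30 genes described here are transcriptional targets of p53, chosen by symbol from a list of genes that p53 is known to switch on. They are 30 of 46078 genes measured by RNA sequencing of whole mouse ovaries, and all 30 symbols were present in every library. The study set 3 ovary libraries labelled CTX, for cyclophosphamide, against 3 control libraries (CTX 1, 2 and 3, and controls 1, 2 and 3). All came from C57BL/6 mice aged 8-9 weeks, and no genotype other than that strain is labelled. The labels give no dose, route, interval after treatment or oestrous stage. They also do not say whether each library is a separate animal. The p-values therefore cover the spread among these libraries, an unknown part of which may be technical. CTX 2 and 3 were close to each other in the granulosa, oocyte and theca marker sums given below. Whether they are independent is not stated, and a fit without either still holds its close match.

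Cyclophosphamide is a prodrug that the liver converts to an alkylating agent, which crosslinks DNA. Damaged DNA activates kinases that stabilise p53, and p53 then binds paired copies of a short motif near its targets and raises their transcription. The targets stop the cell cycle, kill the cell, repair DNA, limit oxidants or, through Mdm2, degrade p53 itself. In the ovary much of the damage response of oocytes runs through the related factor p63, while growing follicles lose granulosa cells by apoptosis. Several of the genes are also induced by hormones, growth factors or nutrient stress without DNA damage.

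The motif is shown first because it is the sequence through which p53 acts on its targets. No motif search was used here to choose the genes. They were chosen as known p53 targets, however, so the share of their windows holding the motif is not independent of that choice. RefSeq promoter windows (250 bases before to 50 after an annotated start, build GRCm38.p6) were matched to 22 of the 30 genes, in 30 windows. The 10-base p53 consensus site, 1 unit of the paired motif and the same pattern on either strand, occurred in 9 of these windows and 8 of these genes, and in 8.36% of all 32851 windows. The 8 genes were Cdkn1a, Gadd45a, Ei24, Mdm2, Ccng1, Aen, Sesn1 and Polk. The 4 stretches of 60 bases below each lie before an annotated RefSeq start. They belong to those 4 genes of the 8 whose levels depended most steeply on Star in the fit described further on. In the GENCODE gene models Sesn1 spans chr10:41809935-41908424, so its stretch lies inside the gene. Gadd45a spans chr6:67035096-67037457 there, so its stretch lies partly inside. They are written 5′ to 3′ on the strand of the gene, with the consensus site in capitals.
Cdkn1a, chr17:29090892-29090951, plus strand: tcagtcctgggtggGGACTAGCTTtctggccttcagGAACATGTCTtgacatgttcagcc
Gadd45a, chr6:67037413-67037472, minus strand: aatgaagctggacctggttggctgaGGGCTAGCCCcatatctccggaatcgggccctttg
Sesn1, chr10:41887241-41887300, plus strand: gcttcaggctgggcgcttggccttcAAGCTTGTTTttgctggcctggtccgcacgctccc
Ccng1, chr11:40755437-40755496, minus strand: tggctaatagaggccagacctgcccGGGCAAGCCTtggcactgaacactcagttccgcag
The Cdkn1a stretch holds 2 such sites separated by 12 bases, and the other stretches hold 1 each. A match describes the letters only and does not show that p53 binds there.

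Ovary libraries differ in how much corpus luteum, the progesterone-making body left after ovulation, they contain. Star encodes the protein that carries cholesterol into luteal mitochondria. Star had 572, 65.8 and 65.0 RPKM (reads scaled by exon length and library depth) in CTX 1, 2 and 3, against 543, 532 and 293 RPKM in controls 1, 2 and 3. CTX 1 thus resembled controls 1 and 2 in Star, CTX 2 and 3 were low, and control 3 lay between them. The 7 granulosa markers (Fshr, Cyp19a1, Inha, Inhba, Amh, Foxl2 and Nr5a2) summed to 615, 2233 and 2152 RPKM in CTX and 973, 858 and 2382 RPKM in control. The 7 oocyte markers (Zp1, Zp2, Zp3, Gdf9, Bmp15, Nobox and Figla) summed to 66.8, 248.3 and 240.5 RPKM in CTX and 107, 92.5 and 219 RPKM in control. Follicle markers were therefore low where Star was high, so a slope on Star follows the follicular markers as well as the luteal ones. Adipocyte markers varied with Star too: Adipoq, Cfd and Lep, the 3 on the list, summed to 0.58, 127 and 114 RPKM in CTX and 1.94, 0.07 and 104 RPKM in control, and both that were tested had a negative slope on Star past the threshold used below (Cfd −2.31, Adipoq −1.50). In control 3 the luteal markers did not move together: its Star was above that of CTX 2 and 3, but its Lhcgr, encoding the luteinising hormone receptor, was 43.7 RPKM against 111 and 108 RPKM in CTX 2 and 3. The 4 surface epithelium markers (Upk1b, Msln, Muc16 and Krt19) formed the 1 marker list of the 9 examined whose sums did not overlap between the groups, with 19.55, 26.5 and 25.2 RPKM in CTX and 38.6, 31.6 and 40.9 RPKM in control. Its part in the results that follow was not tested. In whole tissue, fewer cells of a type and less RNA per cell cannot be told apart. Depth estimated from the step between low values was 17050000 to 22150000 reads in CTX and 15800000 to 16800000 reads in control. CTX 1 stood apart, with 13629 genes at an RPKM of at least 1 against 14275 to 14511 in the other libraries.

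No p53 target passed the test between CTX and control ovaries, and the genes divided evenly in direction. Summed over the 30 genes, the level was 433, 451 and 444 RPKM in CTX 1, 2 and 3, against 395.5, 405 and 405 RPKM in controls 1, 2 and 3. All CTX sums lay above all control sums, but not on other scales. As a share of the summed RPKM of all genes, the 30 genes took 0.111, 0.137 and 0.132% in CTX, against 0.116, 0.119 and 0.117% in control, so CTX 1 lay below every control. Their mean log2(RPKM + 1) was 3.16, 3.18 and 3.17 in CTX, against 3.13, 3.17 and 3.08 in control, and control 2 lay above CTX 1 and 3. The sums were also carried by different genes: Sulf2, the most abundant of the set, was highest in CTX 2 and 3, and Gadd45a in CTX 1. Of the 30 genes, 28 reached an RPKM of 1 in at least 3 libraries and were tested, and Pmaip1 and Gdf15 did not. Among the 28, the fitted difference in log2(RPKM + 1), CTX minus control, was positive in 14 and negative in 14, with a median of −0.001. Over all 14535 genes tested it was positive in 48.8% and negative in 51.2%, with a median of −0.005.

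Limma with Benjamini-Hochberg adjustment over all genes called 0 of the 28 genes higher and 0 lower in CTX, where it called 0% of all genes in each direction. The adjusted p was 1 for each of the 28. At an unadjusted p under 0.05 there were also 0 of the 28, against 1.16% of all genes higher and 2.29% lower. CTX and control libraries did not overlap in Phlda3, where CTX was above, and in Rrm2b, where CTX was below, which is 1 tested gene in each direction. Among all genes tested, CTX lay wholly above in 3.32% and wholly below in 5.5%.

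**Figure D1:**
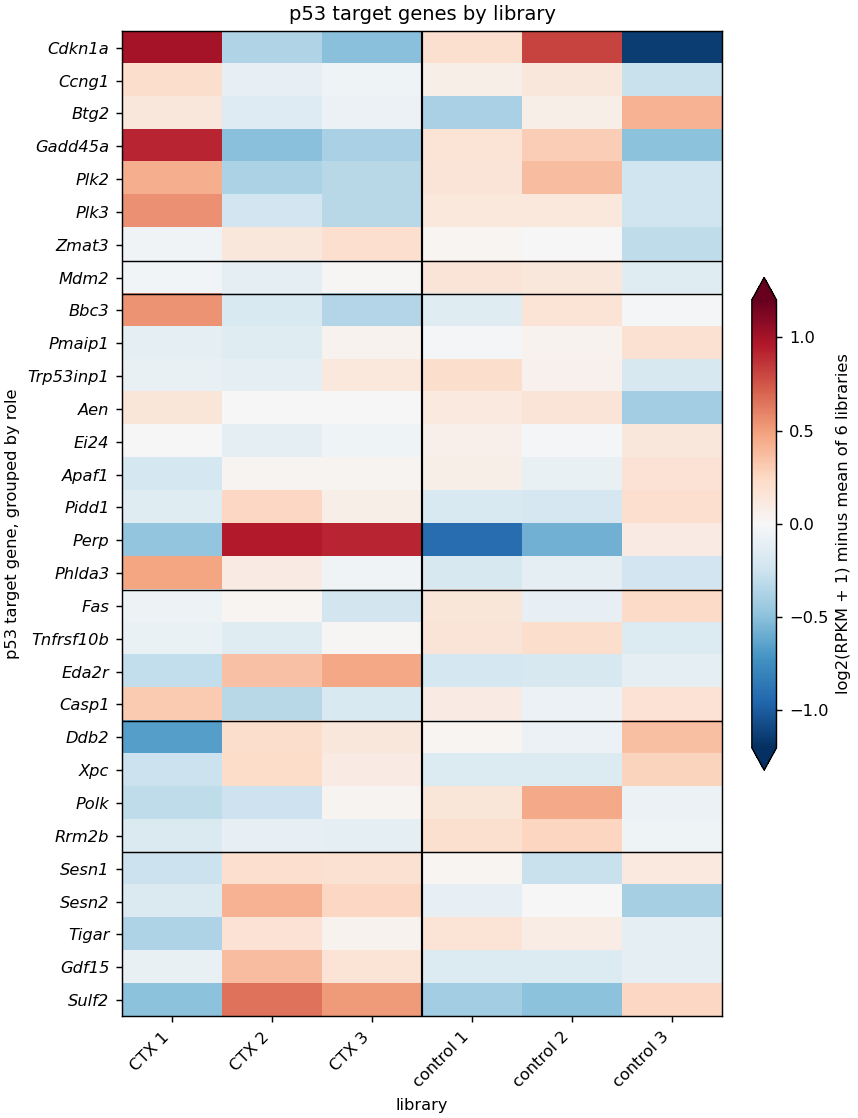
Each row is 1 of the 30 p53 target genes, grouped by role from cell cycle arrest at the top to metabolism and secreted proteins at the bottom, and each column is a library. Colour gives log2(RPKM + 1) minus the mean of the 6 libraries, so red is above and blue below that mean. CTX 1 often has the colour of controls 1 and 2, as in Plk2 and Sulf2, where CTX 2 and 3 have the opposite one.

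Among genes of cell cycle arrest, Cdkn1a, Ccng1, Gadd45a, Plk2 and Plk3 were highest in CTX 1 and controls 1 and 2, the libraries with the most Star, and no gene of this role passed the test for CTX. Cdkn1a encodes p21, the inhibitor of cyclin-dependent kinases through which p53 holds cells before DNA replication. It had 20.9, 7.51 and 6.74 RPKM in CTX 1, 2 and 3, against 11.5, 18.25 and 3.99 RPKM in controls 1, 2 and 3. CTX 1 was the highest library and control 3 the lowest, and the ranges of the groups overlapped over most of their length. The group means were 11.7 ± 7.95 RPKM in CTX and 11.2 ± 7.13 RPKM in control (SD, n = 3 each). Gadd45a, a stress sensor of growth arrest, had 73.7, 27.0 and 29.4 RPKM in CTX, against 43.4, 47.8 and 27.2 RPKM in control. The CTX 1 value was far above all others, while CTX 2 and 3 lay beside control 3. In the annotation, 19.1% of the exonic bases of Gadd45a are shared with E230016M11Rik on the opposite strand. Whether counting used strand is not stated, so reads of the pair cannot be told apart.

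The polo-like kinases Plk2 and Plk3, which respond to both damage and growth signals, were also high in CTX 1 and controls 1 and 2. Plk2 had 24.3, 13.4 and 13.8 RPKM in CTX, against 19.8, 23.2 and 14.8 RPKM in control. Plk3 was lower, with 4.18, 2.02 and 1.81 RPKM in CTX, against 2.85, 2.86 and 2 RPKM in control. In each kinase CTX 1 was the highest library. Ccng1, encoding the p53-induced cyclin G1 that acts on Mdm2, had 29.9, 23.9 and 24.7 RPKM in CTX, against 26.9, 28.2 and 21.1 RPKM in control. Its range over all 6 libraries was narrow beside that of Cdkn1a. Btg2, an antiproliferative gene that is also an immediate early gene, went its own way with 16.1, 13.0 and 13.9 RPKM in CTX, against 10.9, 15.3 and 19.8 RPKM in control. Zmat3, encoding a zinc finger protein that regulates splicing, had 3.93, 4.60 and 4.86 RPKM in CTX, against 4.16, 4.06 and 3.13 RPKM in control. Only the negative regulator Mdm2, the ubiquitin ligase that degrades p53, stands for feedback in the set. It had 17.2, 16.1 and 17.8 RPKM in CTX, against 19.7, 19.4 and 15.8 RPKM in control, so the CTX values lay inside the control range.

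Among genes of the intrinsic death pathway, Phlda3 and Perp came closest to a difference. Phlda3, encoding a p53-induced protein that restrains Akt, had 23.7, 17.99 and 16.2 RPKM in CTX, against 14.6, 15.4 and 14.1 RPKM in control. All CTX libraries lay above all controls, by 0.35 ± 0.16 (SE) in fitted log2(RPKM + 1), with an unadjusted limma p of 0.0621 and an adjusted p of 1, and by 0.20 without CTX 1. Perp, a membrane protein of desmosomes with a role in p53-dependent death, had 5.05, 15.25 and 14.8 RPKM in CTX, against 3.44, 4.64 and 7.99 RPKM in control. CTX 2 and 3 were well above every control, but CTX 1 lay inside the control range. Its fitted difference was the largest of the 28, at 0.93 ± 0.45 (SE), with an unadjusted limma p of 0.0828 and an adjusted p of 1, and was 1.40 without CTX 1. The 3 theca markers (Cyp17a1, Insl3 and Ptch1) were also highest in CTX 2 and 3, summing to 53.8, 287 and 271 RPKM in CTX and 47.6, 29.9 and 101 RPKM in control, and their part in the Perp values was not tested.

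The BH3-only genes, whose products disarm BCL2 proteins, were low. Bbc3, encoding PUMA, had 5.22, 2.79 and 2.37 RPKM in CTX, against 2.88, 3.80 and 3.23 RPKM in control. CTX 1 was the highest library and CTX 2 and 3 the lowest. Pmaip1, encoding NOXA, stayed under 1 RPKM everywhere, with 0.48, 0.44 and 0.64 in CTX and 0.57, 0.64 and 0.81 in control. Those values stand for an estimated 23.8 to 37.2 reads, so a small difference was not detectable at this depth.

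The remaining death genes varied little. Ei24, an endoplasmic reticulum membrane protein and the most abundant of the group, had 43.7, 40.2 and 42.0 RPKM in CTX, against 45.7, 43.0 and 48.0 RPKM in control. Trp53inp1, which promotes autophagy and p53 activity, had 23.3, 23.0 and 27.1 RPKM in CTX, against 28.8, 25.8 and 21.6 RPKM in control. The groups overlapped in each. Aen, a nuclease that fragments DNA in dying cells, had 8.08, 7.23 and 7.27 RPKM in CTX, against 7.92, 8.15 and 5.18 RPKM in control. Apaf1, the scaffold of the apoptosome, had 3.01, 3.76 and 3.76 RPKM in CTX, against 3.87, 3.36 and 4.25 RPKM in control. Pidd1, the scaffold that activates caspase-2, had 2.67, 3.81 and 3.27 RPKM in CTX, against 2.58, 2.53 and 3.66 RPKM in control. The lowest Pidd1 values were those of controls 1 and 2 and CTX 1.

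Of the death receptors, Eda2r was the one with separate levels in CTX 2 and 3. Eda2r, the X-linked receptor of ectodysplasin A2, had 1.19, 2.42 and 2.70 RPKM in CTX, against 1.32, 1.35 and 1.47 RPKM in control. CTX 1 was the lowest library and CTX 2 and 3 the highest. The fitted difference was 0.35 ± 0.23 (SE), with an unadjusted limma p of 0.172 and an adjusted p of 1. It was 0.58 without CTX 1 and 0.20 without CTX 3. Fas, the receptor of Fas ligand, had 1.68, 1.84 and 1.40 RPKM in CTX, against 2.09, 1.61 and 2.28 RPKM in control. Tnfrsf10b, the mouse TRAIL receptor, had 4.49, 4.25 and 4.87 RPKM in CTX, against 5.47, 5.72 and 4.19 RPKM in control. Casp1, the protease of the inflammasome, had 3.61, 1.95 and 2.28 RPKM in CTX, against 2.98, 2.53 and 3.18 RPKM in control. The groups overlapped in these 3 genes. Macrophages also express Casp1, and the 5 macrophage markers (Adgre1, Csf1r, Cd68, Lyz2 and Mrc1) summed to 335, 237 and 235 RPKM in CTX and 379, 277 and 223 RPKM in control. Their part in the Casp1 values was not tested.

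Of 4 genes of repair and nucleotide supply, 3 had negative fitted differences and none passed. Rrm2b, the p53-induced subunit of ribonucleotide reductase, had 4.61, 4.91 and 4.87 RPKM in CTX, against 6.25, 6.58 and 5.11 RPKM in control. All CTX libraries lay below all controls, by −0.26 ± 0.13 (SE), with an unadjusted limma p of 0.0847 and an adjusted p of 1. Polk, a polymerase that copies past damaged bases, had 4.46, 4.66 and 5.90 RPKM in CTX, against 6.44, 8.24 and 5.41 RPKM in control. Only control 3 fell among the CTX values, and the fitted difference was −0.35 ± 0.18 (SE), with an unadjusted limma p of 0.0961 and an adjusted p of 1, and −0.21 without control 2. Ddb2 and Xpc recognise bulky lesions for nucleotide excision repair. Ddb2 had 4.13, 8.41 and 7.95 RPKM in CTX, against 7.25, 6.77 and 9.47 RPKM in control, with CTX 1 far below the rest. It shares 23.8% of its exonic bases with Acp2 on the opposite strand, so here too reads of the pair cannot be told apart. Xpc had 6.37, 9.26 and 8.47 RPKM in CTX, against 6.89, 6.90 and 9.63 RPKM in control.

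Sulf2, Sesn1, Sesn2, Tigar and Gdf15 act outside arrest and death. Sulf2, an extracellular enzyme that trims sulfate from heparan sulfate, had 65.3, 145.5 and 131.5 RPKM in CTX, against 68.55, 65.1 and 109 RPKM in control. CTX 2 and 3 were the highest libraries, control 3 came next and CTX 1 fell among controls 1 and 2. Sesn1 and Sesn2 encode sestrins, which restrain mTORC1, and Sesn2 is also a target of the stress factor ATF4. Sesn2 had 5.70, 9.10 and 7.96 RPKM in CTX, against 6.07, 6.55 and 4.73 RPKM in control. Its fitted difference was 0.33 ± 0.20 (SE), with an unadjusted limma p of 0.141 and an adjusted p of 1. It was 0.50 without CTX 1, 0.20 without CTX 2 and 0.21 without control 3. Sesn1 had 20.1, 27.9 and 27.7 RPKM in CTX, against 24.5, 19.9 and 26.4 RPKM in control.

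Tigar, a phosphatase that lowers glycolytic flux, had 4.85, 7.52 and 6.81 RPKM in CTX, against 7.49, 7.06 and 6.04 RPKM in control. The groups overlapped, with CTX 1 the lowest library. Gdf15, a secreted stress hormone, was untested for its low level. It had 0.77, 1.43 and 1.11 RPKM in CTX, against 0.68, 0.68 and 0.74 RPKM in control, which are an estimated 19.9 to 58.7 reads a library. All CTX libraries lay above all controls, with CTX 1 only just above control 3.

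To separate luteal content from treatment, the 6 libraries were fitted with treatment and log2(Star + 1) together, over all genes other than Star. The slope on Star gives the change in log2(RPKM + 1) for 1 log2 unit of Star at equal treatment. Of the 28 genes, 6 had a positive slope (21.4%) and 5 a negative slope (17.9%) past an adjusted p under 0.05 in limma, where 13.8% of all genes had a positive and 26.7% a negative one. The positive ones were Cdkn1a, Gadd45a, Plk2, Plk3, Bbc3 and Phlda3, and the negative ones were Perp, Sulf2, Ddb2, Eda2r and Sesn1. Slopes past the threshold were thus about as frequent in the set as in the whole table. With trimmed-mean scaling the split over all genes was 2773 positive and 2865 negative, and after quantile normalization 2223 and 2393, against 2009 and 3879 with the values as deposited. Among the 28 genes trimmed-mean scaling gave 8 positive and 4 negative slopes, and quantile normalization 7 and 3.

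Gadd45a had the smallest p, with a slope of 0.46 ± 0.06 (SE) and an adjusted p of 0.00466 in limma. Plk3 (0.28 ± 0.04, limma adjusted p of 0.00818) and Plk2 (0.28 ± 0.05, 0.0115) were close to each other. Cdkn1a had the steepest positive slope, 0.56 ± 0.17, with a limma adjusted p of 0.0464. In the other direction Perp had −0.49 ± 0.07 (0.00725), Sulf2 −0.38 ± 0.06 (0.00833) and Ddb2 −0.28 ± 0.04 (0.00603). Calls of the slope for Gadd45a, Perp and Sulf2 held with each of the 6 libraries left out in turn, and the other 8 were lost without at least 1 library. The slopes themselves moved without CTX 1, to 0.82 for Gadd45a, 0.57 for Plk2, −0.98 for Perp, −0.80 for Sulf2 and −0.44 for Ddb2. CTX 2 and 3 had nearly the same Star (65.8 and 65.0 RPKM), so these slopes came almost wholly from the controls. The number of genes called was 8 without CTX 1, 5 without CTX 2, 5 without CTX 3, 9 without control 1, 11 without control 2 and 16 without control 3. Over all 14534 genes, positive and negative calls were 839 and 1339 without CTX 2, and 2787 and 4866 without control 3. With the mean of the 6 other luteal markers in place of Star, 9 were called, 7 of them the same genes.

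**Figure D2:**
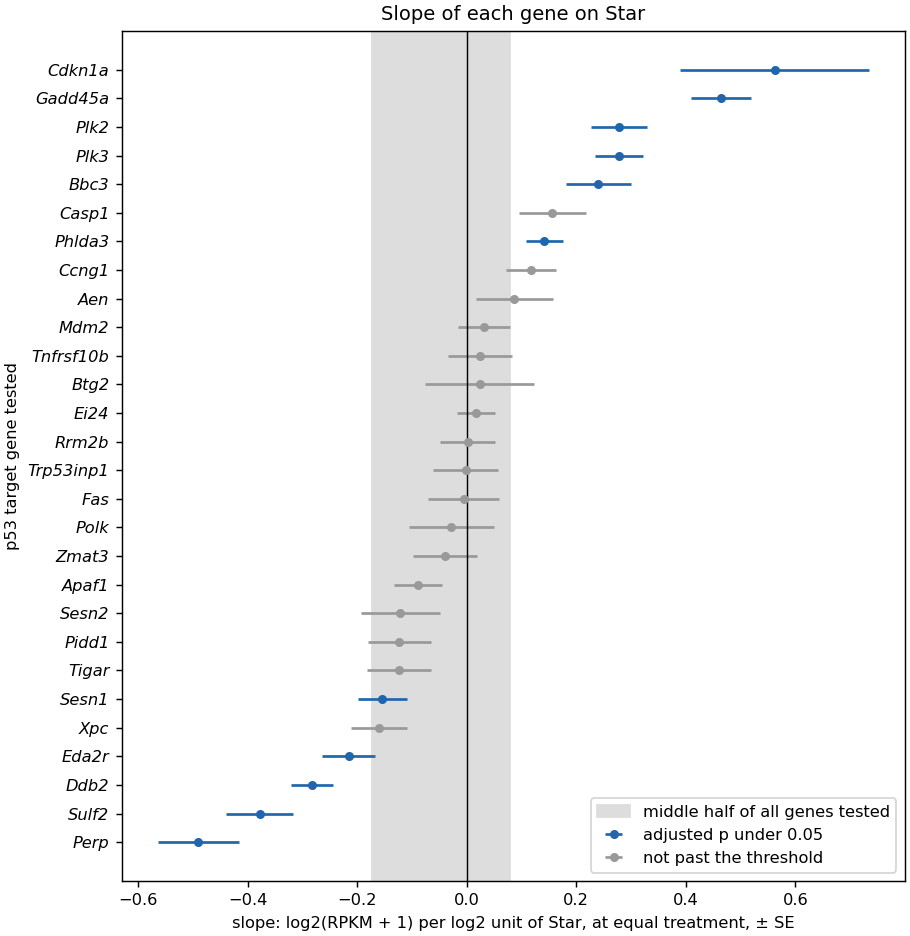
Points are the slopes of the 28 tested genes on Star, in log2(RPKM + 1) per log2 unit of Star at equal treatment, with SE as bars, and the grey band spans the middle quartiles of all genes tested. The steepest slopes are those of Cdkn1a (0.56) at the top and Perp (−0.49) at the bottom, and blue marks the 11 genes past the threshold.

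At equal Star, 3 of the 28 genes differed between CTX and control, and each of these calls depended on the libraries kept. Limma called 2 higher (7.1%) and 1 lower (3.6%) in CTX, where it called 2.93% of all genes higher and 4.58% lower. Phlda3 was higher by 0.59 ± 0.09 (SE) in log2(RPKM + 1), with an adjusted p of 0.0399, and Gadd45a by 0.80 ± 0.15, with an adjusted p of 0.0431. Ddb2 was lower, with −0.69 ± 0.11 and an adjusted p of 0.0399. The next genes did not pass: Plk3 had 0.46 ± 0.12 (limma adjusted p of 0.0664), Bbc3 0.41 ± 0.16 (0.145) and Cdkn1a 1.04 ± 0.47 (0.182). Without CTX 1 the differences were 4.67 for Cdkn1a, 0.85 for Plk3 and −0.19 for Bbc3, and without control 3 that of Cdkn1a was 0.45. Star was 65.8 and 65.0 RPKM in CTX 2 and 3 and 293 to 543 RPKM in control. Without CTX 1 the groups therefore shared no level of Star, and the differences of that fit are extrapolations. With all 6 libraries, the median over the 28 genes was −0.03, and over all genes it was −0.10.

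The fit with Star did not level the cell type markers between the groups. The 6 luteal markers other than Star all had positive differences at equal Star, with a median of 0.89 and 0 called. The 7 granulosa markers were all negative, with a median of −0.85 and 2 called lower, and the 7 oocyte markers were all negative, with a median of −0.80 and 2 called lower. The part of these markers in the differences of Phlda3, Gadd45a and Ddb2 was not tested.

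The calls of Phlda3, Gadd45a and Ddb2 stood on 3 residual degrees of freedom. They held without control 3, when 5 of the 28 were called (Rrm2b and Tigar besides), 2 higher and 3 lower. Over all 14534 genes, that fit called 1394 higher and 1863 lower. The calls of all 3 genes were lost without CTX 1, CTX 2, CTX 3, control 1 or control 2. Without CTX 1, Phlda3 had an adjusted p of 0.387, Ddb2 moved to −1.13 with an adjusted p of 0.0937, and Gadd45a moved to 1.80 with an adjusted p of 0.0514 in limma, while Aen was the 1 gene called. Over all 14534 genes, the fit without CTX 1 called 398 higher and 466 lower. The groups shared no level of Star in that fit, so its differences are extrapolations. With the other luteal markers in place of Star, 0 of the 28 were called, and the adjusted p-values in limma were 0.3301 for Phlda3, 0.624 for Gadd45a and 0.459 for Ddb2. Over all genes the split of calls was 426 higher and 666 lower with the values as deposited, and 692 and 451 with trimmed-mean scaling.

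**Figure D3:**
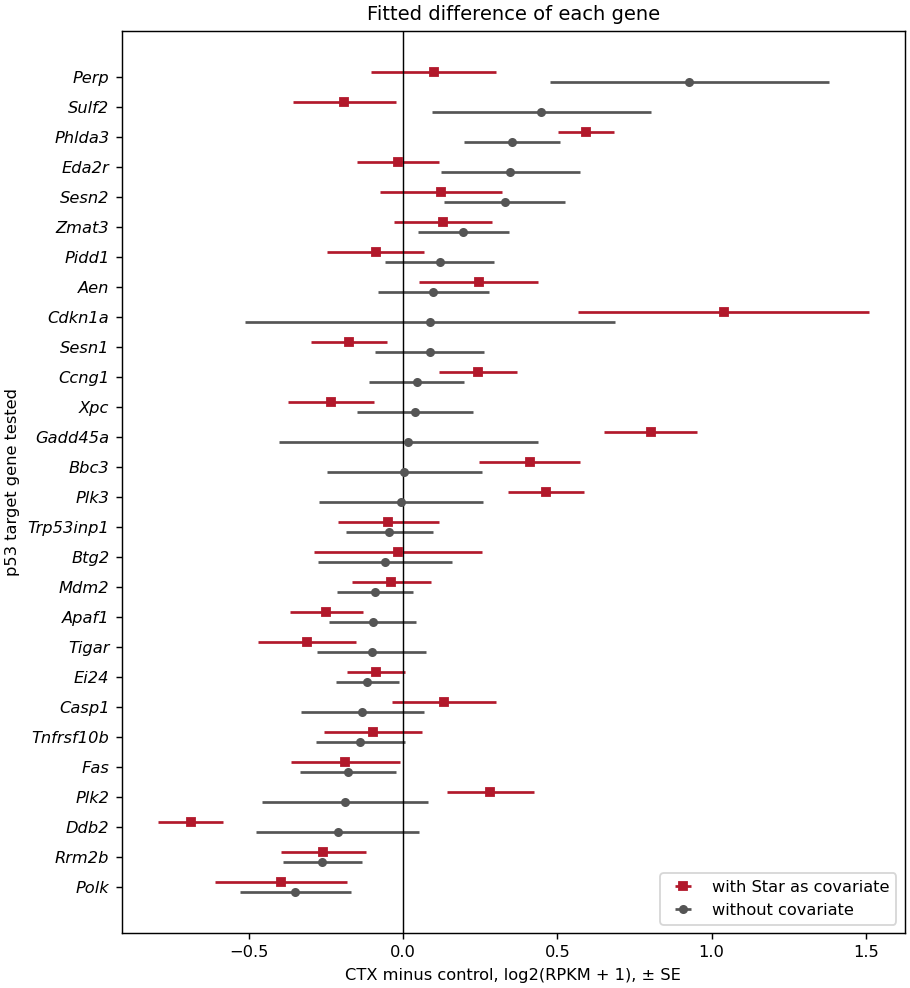
For each of the 28 tested genes the plot gives the fitted difference, CTX minus control, in log2(RPKM + 1) with its SE, as a red square with Star as a covariate and a grey circle without it. Perp moves from 0.93 without Star to 0.10 with it, while Gadd45a moves from 0.02 to 0.80.

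CTX 1 and controls 1 and 2 had Star between 532 and 572 RPKM, but they were not alike in other markers. Luteal markers summed to 9518 RPKM in CTX 1 against 7431 and 8060 RPKM in controls 1 and 2, and the granulosa and oocyte sums given above were lower in CTX 1. Inhba, a granulosa marker that encodes an inhibin and activin subunit, had 0.95 RPKM in CTX 1 against 21.3 and 12.7 RPKM in controls 1 and 2. In CTX 1 Gadd45a was 73.7 RPKM against 43.4 and 47.8 RPKM in controls 1 and 2, Phlda3 was 23.7 against 14.6 and 15.4, and Bbc3 was 5.22 against 2.88 and 3.80. Cdkn1a was 20.9 RPKM in CTX 1 against 11.5 and 18.25 RPKM in controls 1 and 2, where the controls differed from each other by more than CTX 1 differed from control 2. Ddb2 was 4.13 RPKM in CTX 1 against 7.25 and 6.77 RPKM in controls 1 and 2. Sulf2 was 65.3 RPKM in CTX 1, between 68.55 and 65.1 RPKM in controls 1 and 2. Perp was 5.05 RPKM in CTX 1, above the 3.44 and 4.64 RPKM of these controls. Eda2r was 1.19 RPKM in CTX 1, below their 1.32 and 1.35 RPKM. These comparisons rest on 1 CTX library and have no test, and the part of the marker differences in them was not tested. In CTX 2 and 3, with Star near 65 RPKM, no control had a similar level, control 3 being at 293 RPKM.

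**Figure D4:**
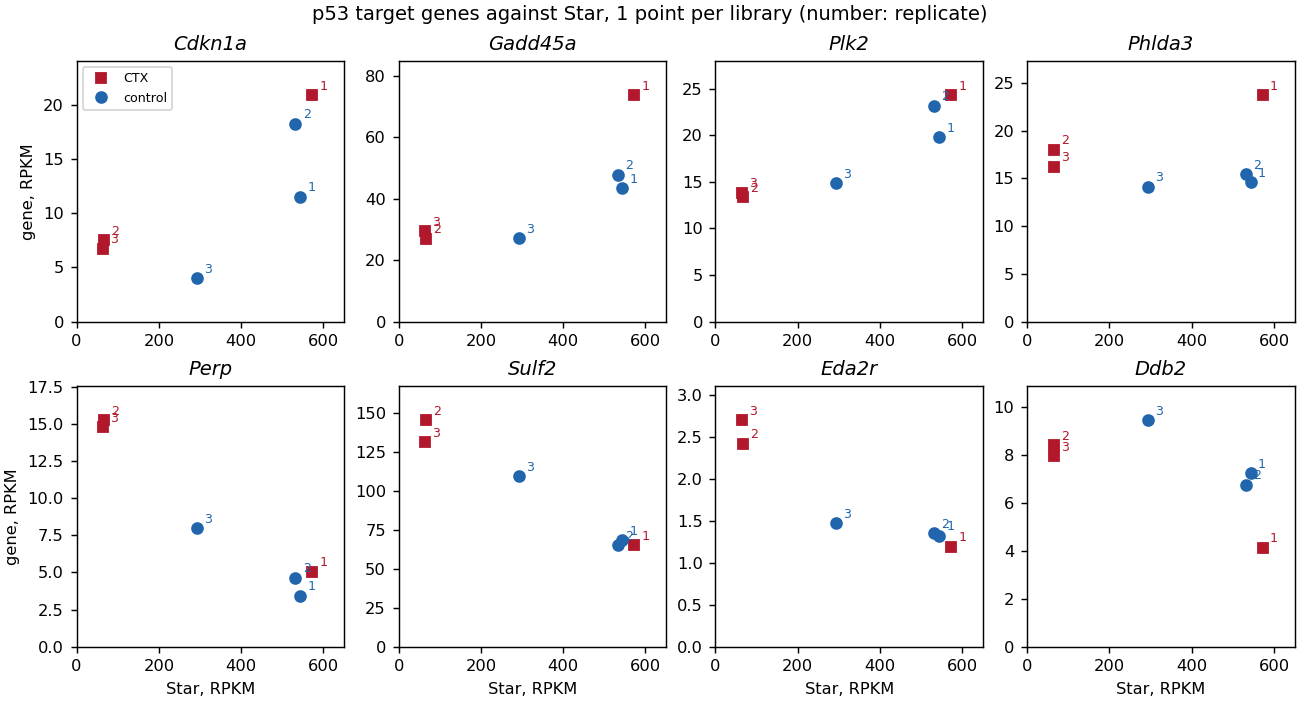
Each panel plots the RPKM of 1 p53 target gene against the RPKM of Star, with a red square for each CTX library and a blue circle for each control library, and the replicate number beside it. CTX 2 and 3 lie together at the left in every panel, and CTX 1 lies beside controls 1 and 2 at the right for Perp, Sulf2 and Eda2r but apart from them for Gadd45a, Phlda3 and Ddb2.

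Genes that act on p53 itself also did not pass. Of 21 regulators, 18 were tested and 0 were called higher or lower in CTX against control, with 7 positive and a median of −0.03. Trp53, which encodes p53 and was the most abundant, had 25.3, 35.7 and 32.5 RPKM in CTX, against 24.8, 26.9 and 31.25 RPKM in control. Usp7, which deubiquitinates Mdm2 and p53, had 22.1, 24.98 and 26.25 RPKM in CTX, against 24.98, 25.2 and 24.5 RPKM in control. At equal Star, 2 of the 18 were called lower and 0 higher in limma, where 4.58% of all genes were called lower and 2.93% higher. These were Mdm4, the relative of Mdm2 that masks p53 (−0.43, adjusted p of 0.0421), and the deacetylase gene Sirt1 (−0.49, 0.0439). Mdm4 had 12.5, 18.6 and 18.1 RPKM in CTX, against 17.4, 17.3 and 19.2 RPKM in control. Sirt1 had 6.11, 10.5 and 11.4 RPKM in CTX, against 9.52, 8.72 and 10.8 RPKM in control. In each, CTX 1 alone was low. Neither call held without control 2, CTX 2 or CTX 3, when 0 of all genes were called lower at equal Star. On Star, 1 of the 18 regulators had a positive and 10 a negative slope past the threshold, against 13.8% and 26.7% of all genes. Trp63, the damage sensor of oocytes, was too low to be tested, with 0.55, 1.10 and 0.80 RPKM in CTX and 0.81, 0.86 and 1.79 RPKM in control.

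Of 20 further p53 targets outside the set, 17 were tested, 12 had positive differences with a median of 0.10, and 0 were called in CTX against control. At equal Star 2 of the 17 were called higher and 0 lower, where 2.93% of all genes were called higher and 4.58% lower. Bax, the pore-forming death gene, had 103, 51.75 and 46.6 RPKM in CTX, against 56.5, 58.4 and 47.7 RPKM in control (0.79 at equal Star, limma adjusted p of 0.0391). Rps27l, a p53-induced ribosomal protein gene, had 164, 80.1 and 90.5 RPKM in CTX, against 100.5, 104 and 89.1 RPKM in control (0.62, 0.0406). In each, CTX 1 alone was high. Neither call held without control 1, control 2, CTX 2 or CTX 3, when 0 of all genes were called higher at equal Star. Thbs1, encoding the matrix protein thrombospondin 1, was the most abundant of these targets and Rps27l came next. Thbs1 had 64.7, 159 and 158 RPKM in CTX, against 84.6, 52.4 and 195 RPKM in control. Past the threshold, 5 of the 17 had a positive and 5 a negative slope on Star, against 13.8% and 26.7% of all genes.

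Cell cycle genes that p53 represses through p21 and the DREAM complex were measured beside Cdkn1a. All 14 were tested, 12 had positive differences with a median of 0.16, and 0 were called in CTX against control or at equal Star. Their summed level was 94.8, 196 and 193 RPKM in CTX, against 96.9, 113 and 207 RPKM in control. The sum was low in CTX 1 and controls 1 and 2. In these libraries Cdkn1a was high and the granulosa and oocyte sums were low. Past the threshold, 11 of the 14 had a negative slope on Star and 0 a positive one. Over all genes, 26.7% had a negative slope and 13.8% a positive one. The part of Cdkn1a or of follicle content in these levels was not tested. Cdc20 and Ccnb2, both needed for mitosis, were the most abundant, with 12.2, 28.1 and 27.5 RPKM in CTX and 11.3, 12.3 and 29.0 RPKM in control for Cdc20, and 13.2, 30.5 and 30.5 RPKM in CTX and 14.4, 14.8 and 33.6 RPKM in control for Ccnb2.

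Lists that share inducers with some p53 targets gave the following values. Of 15 immediate early genes, which handling of tissue can induce, 14 were tested, 12 had negative differences with a median of −0.24, and 0 were called in CTX against control. Dusp1, a phosphatase gene of stress signalling, had 73.9, 6.64 and 6.01 RPKM in CTX, against 53.35, 47.6 and 8.68 RPKM in control, and was high in the same 3 libraries as Gadd45a and Plk2. Nr4a1, an orphan nuclear receptor gene induced by luteinising hormone and the most abundant on the list, had 68.9, 23.9 and 22.1 RPKM in CTX, against 26.1, 50.4 and 113 RPKM in control. Of 12 genes of the integrated stress response, which raises Sesn2 and Gdf15 through ATF4, 10 were tested, 6 had positive differences with a median of 0.06, and 0 were called. Atf4 had 149, 101 and 99.4 RPKM in CTX, against 111, 121 and 96.75 RPKM in control, and Ddit4, a stress-induced inhibitor of mTORC1, had 40.2, 47.7 and 50.01 RPKM in CTX, against 43.3, 45.55 and 42.9 RPKM in control. Asns, encoding asparagine synthetase, was the 1 gene of this list called at equal Star, higher by 0.64 with a limma adjusted p of 0.0398. It had 16.8, 10.7 and 10.7 RPKM in CTX, against 9.83, 11.15 and 8.82 RPKM in control, and CTX 1 alone was high. The Asns call was lost without control 1, control 2, CTX 2 or CTX 3. The part of these lists in the values of the p53 targets was not tested.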

How the data were processed

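The authors deposited 1 table per library with 1 value for each of 46078 genes, taken as RPKM with 2 decimals. The headers give no unit, and RPKM was inferred from the numbers. The submitters' processing notes name Bowtie 0.12.2 and the build mm10. Counter, annotation release and strand use are not stated, and per the labels' protocols libraries came from Trizol RNA with an Illumina TruSeq kit. Exon lengths came from GENCODE M21 on GRCm38 (98.0% of identifiers matched). With these lengths, low values of genes up to 1000 bases fell within 0.2 reads of whole reads in 97.7 to 98.0% of cases, which gives the depth. Rounding hides exact counts in long genes, and neither count models nor counting intervals were used.

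Limma 3.58.1 (R 4.3.3) was run on log2(RPKM + 1), with a mean-variance trend, for genes of at least 1 RPKM in at least 3 libraries. Fold changes of low genes are understated on this scale. Fits were CTX against control, and treatment with log2(Star + 1) as covariate, adjusted over all genes, two-sided. They were also run on simulated data with independent noise and a slope on Star in few genes. That setting differs from these libraries, where many genes had a slope on Star, so it does not show how the fits behave here. The alternatives were pseudocounts of 0.1 and 0.5, a filter at a mean RPKM of 5 or none, quantile normalization, trimmed-mean scaling, no trend, a replicate block, other luteal markers for Star, and each library left out. All of the set's genes are named, with statistics for the 6 smallest p-values of each fit, and for slopes and fits with Star also each further call discussed. From the other lists the 2 most abundant genes and those called with or without Star as covariate are named, and Trp63, Lhcgr, Inhba, Cfd and Adipoq were chosen after their values were seen. Members and lists were chosen with earlier results of these data known. Sequences are from RefSeq (GRCm38.p6).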

Additional observations from a re-analysis of the deposited data

How the results depend on the processing

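For CTX against control, 0 genes were called higher and 0 lower under every alternative run on all 6 libraries, and 0 to 2 higher and 0 to 3 lower with 1 library left out, with 0 of the p53 targets called throughout. At equal Star, the reported 426 higher and 666 lower genes and 3 p53 targets became 110, 232 and 1 without a trend, 112, 168 and 1 after quantile normalization, 692 higher with trimmed-mean scaling, 0, 0 and 0 without a filter, 0, 0 and 0 with the replicate block, and 0, 2 and 0 with other luteal markers. Leaving out 1 library gave 0 to 1394 higher, 0 to 1863 lower and 0 to 5 p53 targets. The fitted difference of Bbc3 ranged from −0.19 (without CTX 1, extrapolated in Star) to 0.50. For the slope on Star, the reported 2009 positive, 3879 negative and 11 p53 targets became 1298 positive and 2546 negative with other luteal markers, 2393 negative after quantile normalization, and 0, 0 and 0 with the replicate block. With 1 library left out they ranged from 839 to 2787, 1339 to 4866 and 5 to 16. The cause of these changes was not tested, except that the block leaves 1 residual degree of freedom beside Star. Correlation did not settle whether replicate numbers pair the libraries. Deviations of same-numbered libraries correlated at 0.401, −0.54 and 0.598 for numbers 1, 2 and 3, and CTX 1 correlated best with control 2 (0.614). CTX 1 correlated positively with controls 1 and 2, which had similar Star, and CTX 2 and 3 only with control 3. Such values cannot show whether same-numbered libraries were handled together. Depth limits Pmaip1 and Gdf15, which rest on fewer than 60 reads a library. Among the tested genes, Fas rested on an estimated 49.2 to 84.0 reads and Casp1 on 58.2 to 98.1, so depth limits them too.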
